A study of Mus musculus with 10 samples.

Results

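Small nucleolar RNAs (snoRNAs) were examined in RNA recovered by anti-FLAG immunoprecipitation (IP) from neural stem cell (NSC) cultures of the mouse brain. They were taken as the rows of the deposited expression matrix whose biotype entry was snoRNA, which gave 131 of 15899 rows. Those 131 rows lay at 125 distinct loci, because 6 loci (Rnu3a, Rnu3b1, Rnu3b3, Gm25617, Snora16a, and Snora43 with a row the file calls Snhg7) were each listed by a pair of overlapping rows whose values were the same or nearly so. The cultures were neurospheres grown with EGF and FGF from the brain subependymal zone of mice aged 10 weeks. FLAG cultures were Mex3aFLAG/FLAG, a knock-in in which the endogenous RNA-binding protein MEX3A carries a FLAG tag, and WT cultures were Mex3a+/+ cells of the same background without the tag, so that their anti-FLAG IP held only nonspecifically recovered RNA. Each genotype was processed after formaldehyde crosslinking (FLAG crosslinked, n = 2; WT crosslinked, n = 2) or without it (FLAG native, n = 3; WT native, n = 3), giving 10 libraries. Whole cells were lysed and sonicated, with no separation of nuclei or nucleoli described.

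snoRNAs are short noncoding RNAs that mostly lie in introns of host genes and are released when the intron is processed. Box C/D snoRNAs guide 2′-O-methylation of ribosomal RNA and are held by fibrillarin, Nop56, Nop58 and Snu13, whereas box H/ACA snoRNAs guide pseudouridylation and are held by dyskerin, Nhp2, Nop10 and Gar1. A few, such as U3, U8, U13, U14, U22 and U17, act in the cleavage or folding of the ribosomal RNA precursor. By symbol or, where the file gives only a Gm number, by the RefSeq product at the same position, 86 rows were box H/ACA, 36 were box C/D (6 of them U3 rows), 1 was a Cajal body RNA (Scarna10) and 8 had no class.

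Sequences at the member positions carried the boxes of the class (GRCm38 genome, GENCODE M21 transcripts). The letters ACA lay within the last 8 bases of 82 of 86 box H/ACA rows and of 2 of 36 box C/D rows. The D box letters CTGA lay within the last 15 bases of 35 of 36 box C/D rows and of 5 of 86 box H/ACA rows, and the C box letters TGATGA lay within the first 25 bases of 21 and 0 of them. Only the RNA strand was searched, and the C box letters were taken in one spelling. The median length was 134 bases for box H/ACA and 96.5 for box C/D rows.

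The 6 snoRNAs that were called lower after crosslinking were all copies of one H/ACA snoRNA, SNORA48, and 4 of them are shown because their likeness bears on how reads can be assigned among them. Capitals mark letters that differ from Gm22988, the copy in Eif4a1, after global alignment.
Gm22988: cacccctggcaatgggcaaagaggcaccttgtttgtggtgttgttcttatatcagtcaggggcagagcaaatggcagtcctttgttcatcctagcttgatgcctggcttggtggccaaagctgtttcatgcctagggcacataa
Gm25291: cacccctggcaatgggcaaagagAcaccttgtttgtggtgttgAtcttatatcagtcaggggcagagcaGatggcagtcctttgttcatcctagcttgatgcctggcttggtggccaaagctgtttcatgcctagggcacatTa
Gm25117: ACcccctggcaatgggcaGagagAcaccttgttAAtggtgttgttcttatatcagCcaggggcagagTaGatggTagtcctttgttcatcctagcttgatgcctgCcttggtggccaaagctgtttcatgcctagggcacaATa
Gm24727: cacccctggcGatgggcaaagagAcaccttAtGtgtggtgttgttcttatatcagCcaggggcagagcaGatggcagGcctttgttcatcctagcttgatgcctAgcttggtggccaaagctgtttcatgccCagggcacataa
Gm22988 lies at chr11:69669635-69669778 on the minus strand, in Eif4a1, where it overlaps an annotated exon. Gm25291 lies at chr11:51737779-51737922 on the minus strand, in an intron of Sec24a. Gm25117 lies at chr10:111481493-111481636 on the plus strand, in an intron of Nap1l1. Gm24727 lies at chr8:33691801-33691944 on the plus strand, in an intron of Gsr. Over the 15 pairs of the 6 copies, identity ranged from 86.8% to 98.6%, and Gm25291 differed from Gm22988 at 4 aligned positions. No copy had an alignment elsewhere in the genome that spanned at least 75 bases, the length of the reads, without any mismatch. Perfect runs inside longer alignments that hold a mismatch were not counted, so whether reads fall to a single copy was not tested. At 90% identity or more over at least 90% of the length, Gm25291 had 24 other sites and Gm22988 had 15.

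The snoRNAs with the smallest adjusted p for a rise after crosslinking were Snora15, Gm23245, Gm23262 and Gm26447, and the sequences of Snora15, Gm26447 and Gm23262 are shown with the terminal ACA of the box H/ACA snoRNAs in capitals. Gm23262, a box C/D snoRNA, held neither the C box nor the D box letters in the windows searched.
Snora15: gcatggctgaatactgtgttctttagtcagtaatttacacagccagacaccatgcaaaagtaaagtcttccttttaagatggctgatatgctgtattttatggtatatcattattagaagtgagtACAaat
Gm26447: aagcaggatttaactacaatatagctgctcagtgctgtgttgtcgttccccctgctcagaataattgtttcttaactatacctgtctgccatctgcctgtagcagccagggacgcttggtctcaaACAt
Gm23262: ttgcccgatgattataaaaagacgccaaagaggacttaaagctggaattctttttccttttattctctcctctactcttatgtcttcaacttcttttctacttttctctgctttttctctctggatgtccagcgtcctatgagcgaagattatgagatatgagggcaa
Snora15 (chr5:129794546-129794676, plus strand) and Gm23245, a SNORA22, both lie in Cct6a, which encodes a subunit of the TRiC chaperonin. Gm26447, a SNORA63 (chr16:23111301-23111429, plus strand), lies in Eif4a2, and Gm23262, a SNORD97 (chr7:111076060-111076227, minus strand), lies in Eif4g2, both genes of translation initiation factors. Snora15, Gm26447 and Gm23262 overlap an annotated exon of the host, and Gm23245 does not. Of the 131 rows, 63 overlap an annotated exon of another gene. How far reads of host transcripts counted to such rows was not tested.

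Values are the deposited log2 values, a normalized abundance whose linear sum was close to 949430 in every library. A value is thus relative to the other genes of its library and is not an amount per cell. A lower value in a pulldown can come from fewer cells that hold the RNA, less of it in each cell, poorer recovery or higher values of other RNAs. These cannot be told apart here. Percentages of the linear sum given below describe the deposited values and are not shares of reads. The depth of each library is unknown, because the library distributions had been made nearly identical before deposit. FLAG native replicates 1 and 3 had 329 and 178 genes tied at a lowest value of -1.70 and -1.99, among them 9 and 7 snoRNAs, whereas at most 3 genes were tied at the lowest value of any other library. Mex3a itself was between 3.92 and 6.10 in the FLAG libraries and between 2.75 and 3.52 in the WT libraries (adjusted p = 0.0789, limma, all libraries). Of the marker lists, 8 of 9 neural stem cell genes were measured, with summed linear values of 2016 to 2917 per library against 11.7 to 39.7 for 3 of 5 neuron genes and at most 26 for 2 of 5 microglia genes. Rbfox3, a neuronal gene, was lower in FLAG libraries (log2 fold change -1.31, adjusted p = 0.0127, limma), and its part in the FLAG results below was not tested. Fabp7, a neural stem cell marker, was lower in crosslinked than in native libraries (log2 fold change -1.16, SE 0.27, adjusted p = 0.0377, limma), the only call among the 8 measured stem cell genes in that comparison, and its part in the protocol results was not tested.

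**Figure D1:**
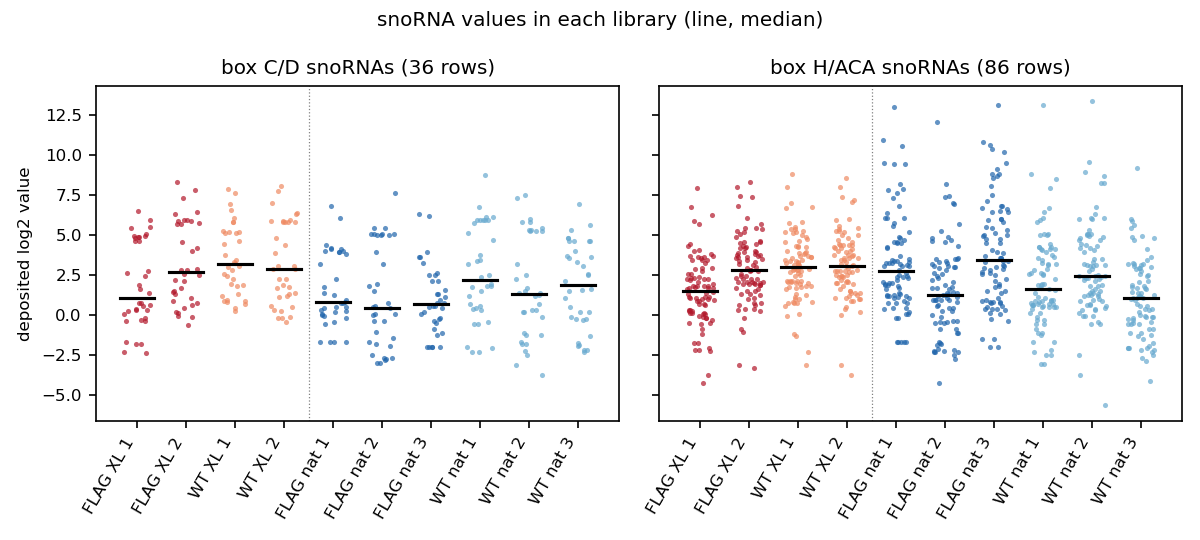
Deposited log2 value of each box C/D snoRNA (left, 36 rows) and box H/ACA snoRNA (right, 86 rows) in each library; XL is crosslinked, nat is native, and the number is the replicate. Points are single snoRNAs and black lines are medians, which for box C/D lay between 0.44 and 0.78 in the 3 FLAG native libraries and between 1.31 and 2.18 in the 3 WT native libraries.

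Some libraries stood apart in their snoRNAs. FLAG crosslinked replicate 1 held the lowest value of the 4 crosslinked libraries for 125 of 131 snoRNAs, with a snoRNA median of 1.62 against 2.81, 3.09 and 2.90 in FLAG crosslinked replicate 2 and WT crosslinked replicates 1 and 2. Native medians were 2.21, 1.24 and 2.54 in FLAG replicates 1 to 3 and 1.87, 2.30 and 1.18 in WT replicates 1 to 3. WT native replicate 3 held the lowest of the 6 native values for 58 snoRNAs and FLAG native replicate 2 for 32. Across the 125 loci, pairs of crosslinked libraries correlated at 0.95 to 0.99 (Pearson's r), pairs of native libraries at 0.66 to 0.93 and pairs of unlike protocol at 0.47 to 0.78. All 10 libraries share a normalization, and loci are not independent replicates, so these are descriptions. The median SD between replicates over the snoRNAs was 1.04, 1.29, 0.26 and 1.15 for FLAG crosslinked, FLAG native, WT crosslinked and WT native libraries, against 0.10, 0.43, 0.14 and 0.25 over all genes.

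Crosslinking was compared with native IP to describe how formaldehyde alters which snoRNAs the pulldown holds, with genotype in the model and all 10 libraries. Of the 131 snoRNAs, 22 (16.8%) were higher and 6 (4.58%) were lower after crosslinking at an adjusted p under 0.05 and an absolute log2 fold change above 0.58 (limma, Benjamini-Hochberg over all 15899 genes). Among all genes, 1.17% were called higher and 2.94% lower. The median snoRNA log2 fold change was 0.89 (interquartile range -0.65 to 1.82), against 0.06 over all genes. It was 0.12 among the 56 snoRNAs with a linear mean of at least 10 and 0.19 with a pseudocount of 8; that mean is taken over both protocols, so a snoRNA high in one of them can pass through it, and a pseudocount shrinks every fold change. The rises were mostly box H/ACA snoRNAs (17 of 86 called higher) with 3 of 36 box C/D snoRNAs and 2 of 8 rows without a class, while all 6 falls were SNORA48 copies. Counted by locus, the calls were again 22 higher and 6 lower of 125.

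These counts rest on few libraries. Without FLAG crosslinked replicate 1, 2 or WT crosslinked replicate 1, 2 the number called higher was 14, 6, 8 and 8, against 0.233%, 0.151%, 0.264% and 0.459% of all genes in the same fits, and without WT native replicate 1 it was 12, against 0.440%. The number called lower was 0 without FLAG crosslinked replicate 1 or 2, where 1.42% and 1.33% of all genes were lower, and 3 without WT native replicate 1, against 1.71%. It was 12 without FLAG native replicate 2 or WT native replicate 3, against 4.83% and 3.10% of all genes. Same-numbered crosslinked and native libraries of a genotype deviated together, and with them as a replicate block, which leaves both native replicates 3 without a partner, 15 snoRNAs (11.5%) were higher and 7 (5.34%) lower, against 0.440% and 2.36% of all genes, and 12 and 6 of them were also called without it. With array weights, which give less weight to variable libraries, 65 were higher and 14 lower, including all 22 and 6, while the share of all genes called rose to 6.50% higher and 6.25% lower.

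**Figure D2:**
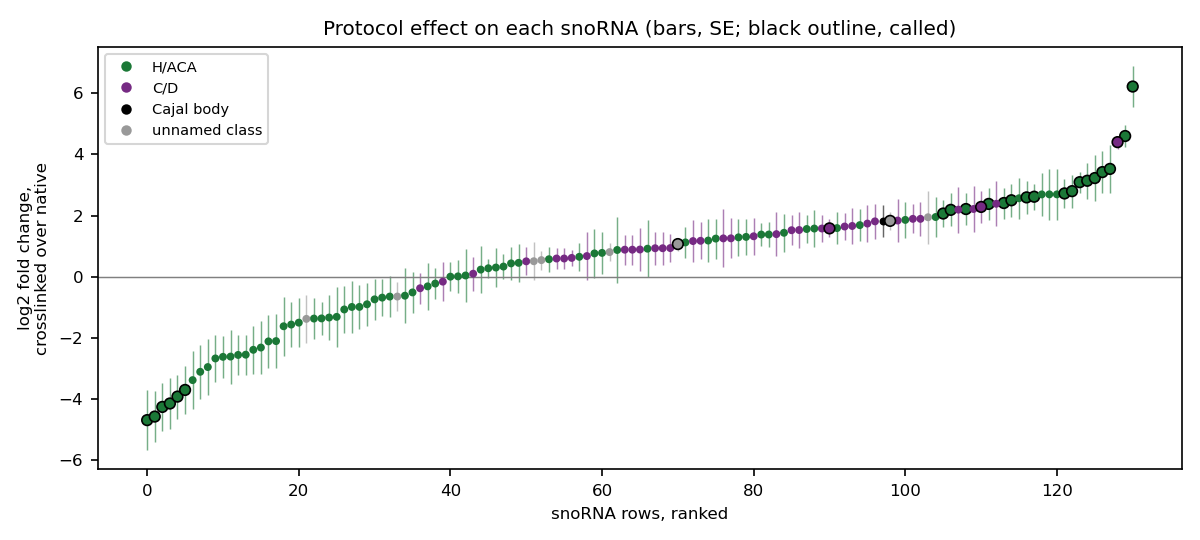
Log2 fold change of crosslinked over native IP (y axis, all 10 libraries, genotype in the model) for the 131 snoRNA rows in rank order (x axis), coloured by class, with SE bars; larger points with black outlines passed the test. The 6 called falls, all SNORA48 copies, lay between -4.69 and -3.70, and the called rises reached 6.22 for Snora15.

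Snora15, an H/ACA snoRNA, showed the largest rise. It measured 3.45 and 5.24 in the FLAG crosslinked libraries, 5.14 and 5.01 in the WT crosslinked libraries, -1.70, -2.54 and 0.38 in the FLAG native libraries and -2.50, -2.50 and -0.16 in the WT native libraries. Every crosslinked value lay above every native value, and FLAG native replicate 1 was at the lowest value of its library. The log2 fold change was 6.22 (SE 0.67, a 74.3-fold rise, adjusted p = 0.00105), and it ran from 2.05 to 7.02 over the alternatives, lowest with a pseudocount of 8.

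Gm23245, a SNORA22 in the same host gene as Snora15, measured 4.43 and 6.06 in FLAG crosslinked, 5.79 and 6.02 in WT crosslinked, 1.82, 0.81 and 0.33 in FLAG native and 0.71, 1.26 and 0.92 in WT native libraries. Crosslinked and native values did not overlap, and the log2 fold change was 4.60 (SE 0.36, 24.2-fold, adjusted p = 0.00043). The rise was called in WT cultures alone (4.94, SE 0.21, adjusted p = 0.00629), where no FLAG-tagged protein was present, and was 4.25 (SE 0.60, adjusted p = 0.113) in FLAG cultures.

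Gm23262, a box C/D SNORD97, had the smallest p of all snoRNAs. Its values were 5.43 and 6.32 in FLAG crosslinked, 6.05 and 6.39 in WT crosslinked, 1.22, 1.82 and 1.30 in FLAG native and 1.75, 2.21 and 1.58 in WT native libraries. Every crosslinked value lay above every native value, and the log2 fold change was 4.4 (SE 0.21, 21.1-fold, adjusted p = 9.18e-06). It was called in both genotypes taken alone, at 4.37 (SE 0.23, adjusted p = 0.00689, limma) in WT and 4.43 (SE 0.35, adjusted p = 0.0185, limma) in FLAG. Without FLAG native replicate 1 or 3 it was not called in FLAG, where no gene at all was called higher.

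Gm26447, a SNORA63 in Eif4a2, measured 6.26 and 8.0 in FLAG crosslinked, 8.01 and 8.0 in WT crosslinked, 4.18, 3.55 and 5.02 in FLAG native and 4.42, 4.85 and 4.86 in WT native libraries. All crosslinked values again lay above all native ones, and the log2 fold change was 3.09 (SE 0.34, 8.51-fold, adjusted p = 0.00118). In the fit of all libraries the calls of Snora15, Gm23245, Gm23262 and Gm26447 held under all 19 alternatives.

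Of the other called rises, Gm23202 (SNORA27, in Rpl21) had a log2 fold change of 3.52 (SE 0.79), Snora81 (in Eif4a2) 3.42 (SE 0.69), Snora75 (in Ncl, which encodes nucleolin) 3.22 (SE 0.74), and Gm26493 (SNORA46, in Cnot1) 3.14 (SE 0.59). Gm22806 (SNORA2/SNORA34 family, in Cks2) stood at 2.8 (SE 0.54) and Snora28 (in Eif5) at 2.72 (SE 0.49). Gm23202, Snora81, Snora75 and Snora28 overlap an annotated exon of the host, and Gm26493 and Gm22806 do not. Crosslinked and native values did not overlap for any of these 6. Their calls were less firm: Gm23202, Snora75, Gm22806 and Snora28 had adjusted p of 0.0700, 0.0836, 0.0683 and 0.0543 with the replicate block, and over all alternatives Snora75 lost the call in 8, Gm23202 in 6, Snora81 in 5, Gm22806 in 4, Gm26493 in 3 and Snora28 in 2. Snora75 was at the lowest value of the library in FLAG native replicates 1 and 3 and WT native replicate 2. The 12 further called rises ran from 1.07 (Gm23547, U89) to 2.61.

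**Figure D3:**
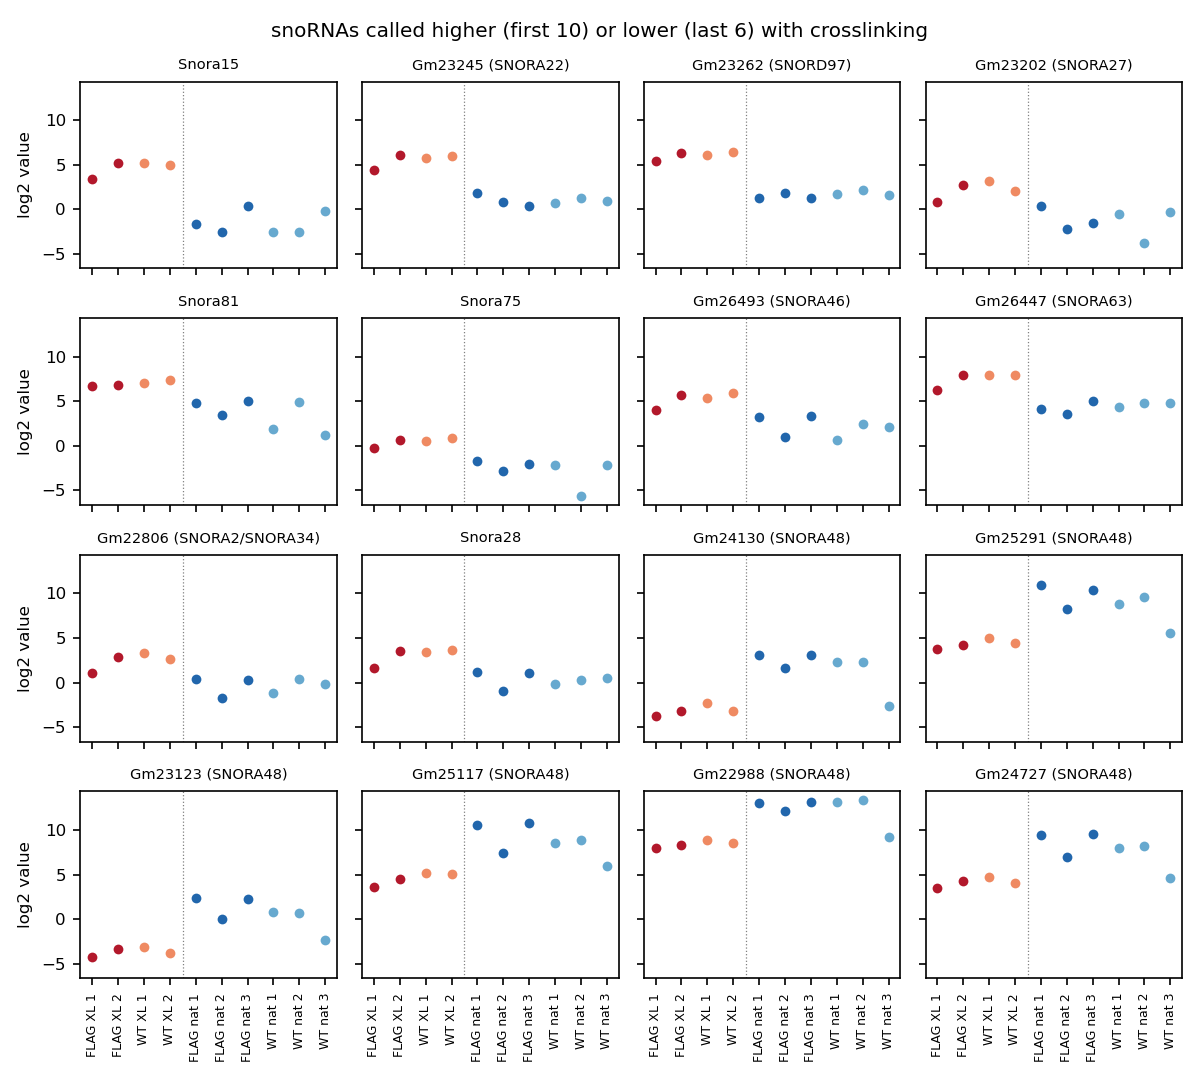
Deposited log2 value (y axis) in each library (x axis; XL, crosslinked; nat, native; number, replicate) of the 10 snoRNAs with the largest called rise and of the 6 called falls. The first 10 panels show higher values in all 4 crosslinked than in all 6 native libraries, and in the last 6 panels WT native replicate 3 lies nearest to the crosslinked libraries.

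SNORA48 copies fell. Gm22988, the copy with the highest level, measured 7.98 and 8.30 in FLAG crosslinked, 8.84 and 8.56 in WT crosslinked, 13.00, 12.11 and 13.16 in FLAG native and 13.16, 13.39 and 9.22 in WT native libraries. Native values lay above crosslinked values throughout, but WT native replicate 3 exceeded the highest crosslinked value by far less than the other native libraries did. The log2 fold change was -3.92 (SE 0.72, a 15.1-fold fall, adjusted p = 0.0133).

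The other copies had lower levels. Gm25291 measured 3.81 and 4.20 in FLAG crosslinked, 4.98 and 4.47 in WT crosslinked, 10.97, 8.23 and 10.42 in FLAG native and 8.81, 9.58 and 5.61 in WT native libraries, a log2 fold change of -4.57 (SE 0.83, adjusted p = 0.0127). Gm25117, Gm23123, Gm24727 and Gm24130 changed by -4.14 (SE 0.83), -4.26 (SE 0.79), -3.70 (SE 0.79) and -4.69 (SE 0.97), with adjusted p between 0.0142 and 0.0255. For Gm24727 and Gm24130 the lowest native value, that of WT native replicate 3, lay below the highest crosslinked value, so that the groups overlapped.

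Together the 6 copies made up 0.0304% to 0.0581% of the summed linear signal in crosslinked libraries and 0.528% to 1.37% in native libraries except WT native replicate 3, where they made up 0.0773%. All 131 rows made up 0.164% to 0.380% of crosslinked and 0.176% to 2.20% of native libraries, and the 6 copies were most of the snoRNA signal in every native library except WT native replicate 3. Within FLAG cultures Gm22988 (-4.62, SE 0.33, adjusted p = 0.0142) and Gm24130 were called, and within WT cultures no copy was (Gm22988 -3.22, SE 1.24, adjusted p = 0.450). With the replicate block all 6 copies stayed called in all libraries, but the call was lost in 7 alternatives for Gm24130, 6 for Gm24727, 5 for Gm23123, 3 each for Gm22988 and Gm25117 and 2 for Gm25291, among them leaving out either FLAG crosslinked library. Without WT native replicate 3 the log2 fold changes ran from -5.56 (Gm24130) to -4.32 (Gm24727).

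Further H/ACA snoRNAs were higher in native IP without passing the test. Snora17 measured 1.10, 2.05, 2.49 and 3.29 in crosslinked libraries (FLAG, then WT), 7.34, 4.61 and 8.60 in FLAG native and 4.08, 6.05 and 2.99 in WT native libraries (log2 fold change -3.38, SE 0.94, adjusted p = 0.0729); it was chosen after its values were seen, as the uncalled snoRNA with the lowest log2 fold change. WT native replicate 3 overlapped the crosslinked libraries here as well. No box C/D snoRNA was called lower, and 34 of 36 had log2 fold changes above 0, with a median of 1.29 against 0.38 for box H/ACA. The box H/ACA values spread more widely, with an interquartile range of -1.37 to 1.93 against 0.88 to 1.75.

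Counting only whether groups overlapped, 19 snoRNAs were higher in all 4 crosslinked than in all 6 native libraries and 7 were lower, where 5.56% and 4.34% of all genes were. Besides 4 SNORA48 copies, the 7 were Snora33, Snora43 and the overlapping Snhg7 row. Across the 125 loci, the protocol log2 fold change had a Spearman correlation of -0.52 with GC content, -0.32 with the mean log2 level and -0.16 with length; these describe one set of libraries, and near-identical copies share sequence.

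The same contrast within each genotype had fewer libraries. In WT cultures 3 snoRNAs were called higher (Gm23245, Gm23262 and Gm26447) and 0 lower, where 0.0252% and 0.0126% of all genes were. The snoRNA median in WT was 1.14, and it was 0.24 among snoRNAs with a linear mean of at least 10 or with a pseudocount of 8. In FLAG cultures 1 was called higher (Gm23262) and 2 lower (Gm22988 and Gm24130), where 0.0189% and 0.0503% of all genes were; the median was 0.77. With the replicate block, which drops the unpaired native replicate 3, these became 17 higher and 13 lower in WT, against 0.170% and 0.723% of all genes, and 27 higher and 27 lower in FLAG, against 0.352% and 2.38%. Without FLAG native replicate 2, 5 were higher and 24 lower in FLAG cultures, against 1.27% and 4.82% of all genes. Without FLAG native replicate 1 or 3 no snoRNA was called in FLAG cultures, and none was lower in 1 fit of 4 groups. The FLAG median was 0.011 without FLAG crosslinked replicate 2 and -0.63 among snoRNAs with a linear mean of at least 10. Gm22988, Gm23262 and Gm26447 had a difference in protocol effect between genotypes of 1.40 (SE 1.43), -0.06 (SE 0.44) and 0.41 (SE 0.70), coded as WT minus FLAG, with adjusted p of 0.970, 0.988 and 0.970.

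Anti-FLAG IP was compared between FLAG and WT cultures to describe which snoRNAs were recovered above the untagged background. No snoRNA was called in either protocol alone, or over all libraries with protocol in the model. In crosslinked libraries no gene at all was called (smallest adjusted p = 0.315), so that comparison could not set snoRNAs apart. In all libraries 0.264% of genes were called higher and 0.233% lower, and in native libraries 0% and 0.107%; the smallest adjusted p of a snoRNA was 0.0847, for Snord32a. At an unadjusted p under 0.05 and in all libraries, 0 snoRNAs were higher and 14 (10.7%) were lower, against 11.2% and 9.85% of all genes, so that the share of lower snoRNAs was near that of all genes while none was higher. The median snoRNA log2 fold change was -0.04, against -0.03 over all genes. The snoRNA median ran from -0.30 to 0.34 when 1 library was left out, and it was -0.71 without FLAG native replicates 1 and 3.

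Within each protocol, more snoRNAs were lower than higher in FLAG libraries at an unadjusted p under 0.05. In crosslinked libraries 126 of 131 snoRNAs had log2 fold changes below 0 (median -0.85), with 0 higher and 9 lower at an unadjusted p under 0.05, where 5.48% and 2.22% of all genes were. This median was -0.16 without FLAG crosslinked replicate 1 and -1.59 without replicate 2. FLAG and WT values did not overlap for 1 higher and 63 lower snoRNAs, against 19.1% and 19.9% of all genes. In native libraries 81 had log2 fold changes above 0 (median 0.42), 7 were higher and 16 lower at an unadjusted p under 0.05, against 8.38% and 8.37% of all genes, and values did not overlap for 0 higher and 5 lower, against 8.62% and 10.8%. Without FLAG native replicate 2, 28 snoRNAs (21.4%) were called higher and 8 (6.11%) lower in native libraries, against 9.12% and 10.8% of all genes, and without WT native replicate 2, 3 were called lower, against 0.208% of all genes. With array weights 31 (23.7%) were higher and 13 (9.92%) lower, against 10.4% and 12.1% of all genes. When 1 library was left out, the native median ran from 0.15 (without WT native replicate 3) to 1.00 (without FLAG native replicate 2). Without both FLAG native libraries with the tied lowest values, replicates 1 and 3, the native median was -0.56.

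The difference between the native and the crosslinked FLAG effect was tested as an interaction. No snoRNA and no gene was called, and at an unadjusted p under 0.05, 5 snoRNA rows had a larger native effect and 0 a smaller one, against 0.233% and 0.195% of all genes. The median interaction over snoRNAs was 1.17, and it was 0.45 without FLAG crosslinked replicate 1 and 1.98 without FLAG crosslinked replicate 2. With a pseudocount of 8 it was 0.36, and without FLAG native replicates 1 and 3 it was 0.29. The 5 rows were Snora31, Snora34, Snora17 and both rows of Gm25617 (a SNORA17), named after their values were seen, with log2 differences between 2.14 and 3.87.

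**Figure D4:**
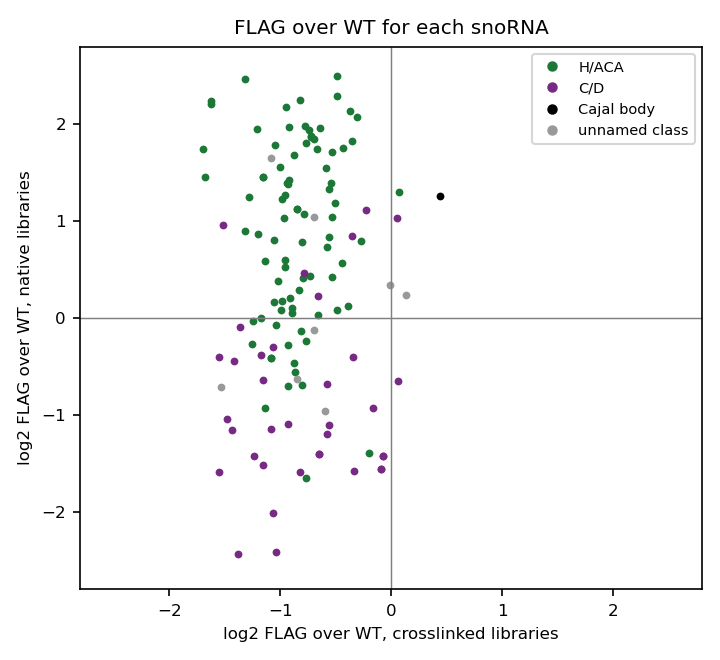
Log2 fold change of FLAG over WT in crosslinked libraries (x axis, 2 against 2) and native libraries (y axis, 3 against 3) for each snoRNA row, coloured by class; no point passed the test. Box C/D snoRNAs lay mostly below 0 on both axes, and 70 of 86 box H/ACA snoRNAs lay above 0 on the native axis.

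In native IP most box C/D log2 fold changes lay below 0 and most box H/ACA ones above. Of the 36 box C/D rows, 30 had native log2 fold changes below 0 (median -1.10, 14 at an unadjusted p under 0.05), whereas 70 of 86 box H/ACA rows were above 0 (median 1.06, 7 at an unadjusted p under 0.05 and 1 lower). The 7 are 8.14% of the box H/ACA rows, near the 8.38% of all genes, and the 14 are 38.9% of the box C/D rows, against 8.37%. These shares count rows and not loci: the 36 box C/D rows lie at 33 loci, with Rnu3a, Rnu3b1 and Rnu3b3 each listed by a pair of rows. In crosslinked libraries the medians were -0.80 and -0.87. The box C/D median log2 value was 0.78, 0.44 and 0.65 in FLAG native replicates 1 to 3 and 2.18, 1.31 and 1.87 in WT native replicates 1 to 3, which did not overlap. Over the 22 box C/D rows classed by symbol alone they did overlap, at 0.43, 0.038 and 0.53 in FLAG native and 2.18, 0.30 and 1.55 in WT native libraries. The box H/ACA median was 2.72, 1.27 and 3.46 in FLAG native and 1.65, 2.40 and 1.06 in WT native libraries, which did overlap. FLAG native replicates 1 and 3, the libraries with the tied lowest values, held the highest of these medians, and FLAG native replicate 2 lay within the WT native range. Of the 36 box C/D rows, 4 and 5 were at the tied lowest value in FLAG native replicates 1 and 3, and the difference between the classes was not tested. Without the 6 U3 rows the box C/D native median was -0.81.

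The 5 rows with the smallest unadjusted p for a lower FLAG value were Snord32a, Gm22357, both rows of Rnu3a, and Snord104. Snord32a and Snord104 are shown here with Snord14d, which had the largest negative FLAG log2 fold change of the cleavage and folding snoRNAs; capitals mark the C box and D box letters.
Snord32a: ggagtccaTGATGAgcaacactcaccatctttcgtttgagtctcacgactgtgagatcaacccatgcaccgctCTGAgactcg
Snord104: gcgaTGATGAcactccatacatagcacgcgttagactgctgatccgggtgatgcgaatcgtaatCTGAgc
Snord14d: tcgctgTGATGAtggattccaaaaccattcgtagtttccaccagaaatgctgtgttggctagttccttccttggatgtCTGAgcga
Snord32a (chr7:45127382-45127464, minus strand) lies in an intron of the ribosomal protein gene Rpl13a, Snord104 (chr11:106500993-106501062, plus strand) in no annotated host on its strand, and Snord14d (chr9:40803995-40804080, plus strand) in Hspa8.

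Snord32a measured 0.60 and 1.51 in FLAG crosslinked against 2.57 and 1.71 in WT crosslinked, and 0.40, 0.08 and 0.74 in FLAG native against 1.79, 1.40 and 1.48 in WT native libraries. FLAG values lay below WT values in both protocols, with a log2 fold change of -1.12 (SE 0.25, unadjusted p = 0.00108, adjusted p = 0.0847, limma, all libraries). It was called with array weights and without WT crosslinked replicate 2 (adjusted p = 0.0395), and the adjusted p over its alternatives ran from 0.000873 to 0.229.

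Snord104 measured 1.35 and 2.84 in FLAG crosslinked against 3.45 and 3.05 in WT crosslinked, and -0.18, 0.46 and 0.55 in FLAG native against 3.17, 1.15 and 1.05 in WT native libraries (log2 fold change -1.37, SE 0.43, adjusted p = 0.138, limma). Gm22357, a SNORD24 in Gas5, had a log2 fold change of -0.95 (SE 0.29, adjusted p = 0.134), with overlap in crosslinked but not in native libraries, and was called with array weights (-0.85, adjusted p = 0.00716). Rnu3a, a U3 gene, had -1.10 (SE 0.34, adjusted p = 0.137), with overlap in native but not in crosslinked libraries. Snord32a, Snord104 and Gm22579, a SNORA25 in Taf1d, were the 3 snoRNAs whose FLAG values lay below all WT values in both protocols; 0 lay above, where 4.47% of all genes lay below and 4.84% above.

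The 5 snoRNAs with the smallest unadjusted p for a higher FLAG value were not called either, though with array weights Scarna10 was called higher (0.84, adjusted p = 0.0358). Scarna10, a Cajal body RNA, measured 6.58 and 6.59 in FLAG crosslinked, 5.71 and 6.58 in WT crosslinked, 5.64, 4.4 and 5.49 in FLAG native and 4.24, 5.37 and 2.14 in WT native libraries (log2 fold change 0.93, SE 0.52, adjusted p = 0.309, limma). Snora9 (1.30, SE 0.89), Snora74a (1.18, SE 0.85), Snora73a (1.13, SE 0.76) and Snora73b (1.12, SE 0.73) had adjusted p between 0.364 and 0.406. Each of these last 4 had its highest values in FLAG native replicates 1 and 3, and without those libraries their log2 fold changes were -0.23, -0.0083, -0.12 and -0.025.

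Among snoRNAs listed for ribosomal RNA precursor cleavage and folding, to which Snord17, a methylation guide, had been added, none of those measured was called in FLAG over WT or in crosslinked over native, in all libraries. For crosslinked over native, Snord22 (2.10, adjusted p = 0.00863) and Snord17 (adjusted p = 0.0119) were called with array weights, and Snord17 also without WT native replicate 2 (adjusted p = 0.0304). Of the symbols listed for this group, Snord3a and Snord14a were not analysed here, and U3 was present as Rnu3a, Rnu3b1 and Rnu3b3, added to the group after the rows were seen. Rnu3b1 and Rnu3b3 are identical in sequence and cannot be told apart by reads. Snord118 (U8), which acts in processing of the large subunit RNAs, measured 2.76 and 4.55 in FLAG crosslinked, 4.61 and 4.84 in WT crosslinked, 3.20, 3.18 and 0.51 in FLAG native and 5.10, 2.51 and 5.31 in WT native libraries (FLAG over WT -1.64, SE 0.67, adjusted p = 0.212, limma).

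The U14 copies, which act in processing of the small subunit RNA, lie in Hspa8. Snord14d measured 0.74 and 2.82 in FLAG crosslinked, 3.27 and 3.05 in WT crosslinked, 0.07, 0.41 and -0.49 in FLAG native and 3.46, 0.28 and 3.58 in WT native libraries (FLAG over WT -2.02, SE 0.64, adjusted p = 0.138, limma). WT native replicate 2 was within the FLAG native range and the other WT native libraries were above it. Snord14c had a FLAG over WT log2 fold change of -1.58 (SE 0.93), Snord13 (U13) of -1.35 (SE 0.50), Snord14e of -0.86 (SE 0.54), Snord17 of -0.62 (SE 0.44) and Snord22 (U22) of -0.04 (SE 0.59).

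Snora73a and Snora73b, the U17 copies in Rcc1, were 96.6% identical and had similar values. Snora73b measured 5.87 and 7.44 in FLAG crosslinked, 6.72 and 7.2 in WT crosslinked, 9.47, 7.46 and 10.62 in FLAG native and 6.72, 8.71 and 5.88 in WT native libraries, so the groups overlapped in both protocols. For crosslinked over native, log2 fold changes in this group ran from -1.33 (Snora73b, SE 0.75) to 1.32 (Snord22, SE 0.60), with adjusted p of at least 0.251, and the methylation guide Snord17 stood at 1.57 (SE 0.45, adjusted p = 0.0756).

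Per kilobase of the annotated gene, the highest mean log2 levels were those of Gm22988 (13.6), Snord15b (10.2), Gm25291 (9.90), Snora73b (9.89) and Gm25117 (9.85), 3 of them SNORA48 copies. These means pool both protocols, and within crosslinked libraries Gm26447 (10.52), Snord15b (10.47) and Snord22 (10.29) followed Gm22988 (11.21), whereas within native libraries Gm25291 (11.73) and Gm25117 (11.51) followed it (15.13). Snord15b, a box C/D snoRNA in the ribosomal protein gene Rps3, changed by 0.50 with crosslinking (SE 0.45, adjusted p = 0.590) and by -0.89 in FLAG over WT (SE 0.44, adjusted p = 0.268). Gm25291, Snora73b and Gm25117 differed by less than the SD between replicates of any native group.

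Host genes were set beside their snoRNAs, because 120 of 131 rows lay within a gene on the same strand, 97 of them in protein-coding genes. A host row was in the matrix for 118 rows, at 114 loci and in 82 host genes. At all 114 loci the snoRNA value was at or below the host value in every library, including all 54 loci that overlapped no annotated exon. In native libraries Gm25291 equalled 62.1% to 96.8% of the linear value of its host Sec24a, Gm25117 70.0% to 98.3% of Nap1l1, Gm24727 55.2% to 97.4% of Gsr and Gm22988 78.1% to 94.5% of Eif4a1. In crosslinked libraries these shares were 27.8% to 48.7%, 22.4% to 48.6%, 35.8% to 56.7% and 58.5% to 71.1%.

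The rows of these 4 hosts were also called lower after crosslinking, with log2 fold changes from -3.50 (Eif4a1) to -2.82 (Gsr). How far reads of the snoRNA were also counted to the host was not tested. Host values here and below still hold any such reads, so host calls are not a separate measure of the host transcript. Eif4a1 shows both directions at one host: beside Gm22988 at -3.92, Gm24029 (SNORA67) was called higher at 2.21 (SE 0.51, adjusted p = 0.0357) and Gm25835 (SNORD10) stood at 1.89 (adjusted p = 0.0507). Of the 22 hosts of called rises, counted per snoRNA, 7 were called higher and 1 (Eif4a1) lower, with a median host log2 fold change of 0.52. For Cct6a, host of Snora15 and Gm23245, it was 1.94 (SE 0.28, adjusted p = 0.00384), and for Eif4g2, host of Gm23262, 0.32 (SE 0.35, adjusted p = 0.672). Over the 114 loci the log2 fold changes of snoRNA and host had a Pearson's r of 0.64 and a Spearman's rho of 0.58. These loci share hosts and libraries, and snoRNA and host are not separate measures where reads were counted to both.

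**Figure D5:**
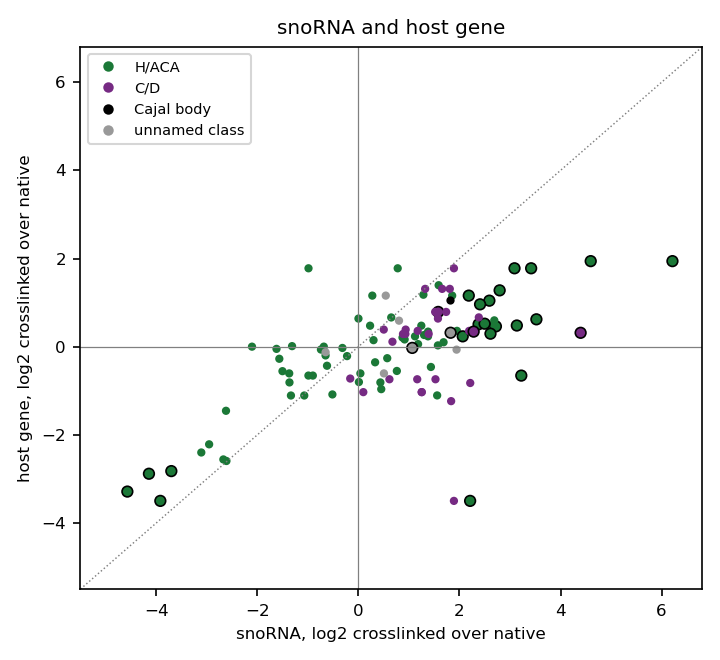
Log2 fold change of crosslinked over native IP for each snoRNA locus (x axis) and for its host gene row (y axis), at 114 loci, coloured by class; black outlines mark called snoRNAs and the dotted line is equality. The 4 SNORA48 copies with a host row lie at lower left with hosts between -3.50 and -2.82, and the called rises lie below the line.

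Some hosts held several snoRNAs. In Eif4a2, Snora81 (3.42) and Gm26447 (3.09) were called higher, while Snord2 (1.89, adjusted p = 0.0897), Gm24201 (another SNORA63, 0.78, adjusted p = 0.58) and Gm24616 (SNORA4, -0.99, adjusted p = 0.488) were not. In Gas5 the box C/D snoRNAs Gm22357 (SNORD24), Gm23212 (SNORD44) and Snord78 stood at 1.58, 1.74 and 1.52, of which the first was called. In Snhg1 the box C/D snoRNAs Gm25894 (SNORD26), Gm24452 (SNORD27) and Snord22 stood at 1.81, 1.66 and 1.32, and none was called. The differences between neighbours were not tested.

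Messenger RNAs of the snoRNP proteins were taken from lists of core and assembly factors. Of 5 symbols listed for the box C/D core proteins, 4 were measured and none was called with crosslinking. Of the 4 box H/ACA core proteins, Nop10 (-2.16, SE 0.41, adjusted p = 0.0151) and Nhp2 (-0.91, SE 0.19, adjusted p = 0.0210) were called lower. None of 15 assembly and maturation factors was called, and no gene of these lists was called in FLAG over WT. Among other small RNAs, 1 of 20 snRNA rows was called higher with crosslinking (median 0.52), 1 of 17 scaRNA rows higher and 2 lower (median -1.94), 2 of 48 miRNA rows higher and 13 lower (median -1.38), and 1 of 32 misc_RNA rows in each direction (median -0.16). No row of these 4 biotypes was called in FLAG over WT in all libraries.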

How the data were processed

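Libraries came from anti-FLAG IP RNA with a stranded kit and random priming, without poly(A) selection or fragmentation, after an extraction set to keep small RNAs; input RNA was not analysed here. Per the labels and methods, the authors aligned single-end reads of 75 nt with HISAT2 to GRCm38, counted them with featureCounts on a GENCODE annotation and normalized them with DESeq2; the submitters' processing notes also name limma, and which step gave the nearly identical distributions is not given in the sources used here. The deposited values are log2 abundances, filtered by the authors, and all 10 columns matched a sample.

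Members and lists were chosen with earlier results of these data known. Log2 values were tested with limma 3.58.1 in R 4.3.3 (empirical Bayes with a mean trend, two-sided, Benjamini-Hochberg over 15899 rows; called at adjusted p under 0.05 and absolute log2 fold change above 0.58), and the steps were checked on values with known changes. Fits that compare protocols share libraries with those that compare genotypes. The methods call the replicates of each genotype biological. Text names, per comparison in all libraries, the 10 called snoRNAs with the largest change in each direction (under 5 called, also the 5 with the smallest p), 11 symbols listed for cleavage and folding and the 5 highest levels.

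Host genes (same-strand span), exon overlap and sequences came from GENCODE M21, in which all 131 rows had the deposited coordinates; families came from RefSeq products, a step added after the rows were seen. One snoRNA sequence is not reported here. Copies were searched with blastn 2.17.0 in the GRCm38 genome. Deviations from group means of same-numbered crosslinked and native libraries of a genotype correlated at 0.15 to 0.39 over all genes (4 pairs), so these were taken as paired by their replicate number; same-numbered FLAG and WT libraries correlated at -0.43 to -0.15 within a protocol and were not. Alternatives were pseudocounts of 1 and 8, a minimum linear mean of 10, other normalizations, the replicate block, array weights, a 4-group fit, robust moderation, leaving out each library, members without exon overlap and, added after the data were seen, 1 row per locus and leaving out FLAG native replicates 1 and 3.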

Additional observations from a re-analysis of the deposited data

How the results depend on the processing

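Counts are of snoRNAs called higher and lower, medians are log2 fold changes over snoRNAs, and the cause of each shift was not tested unless stated. Where leaving out 1 library left a group with 1 sample, that sample was assumed to vary like the others. Crosslinked over native, all libraries (22 and 6, median 0.89), gave 6 to 27 and 0 to 12 without 1 library each, with medians of 0.56 to 1.23. A minimum mean of 10 tests fewer genes and left 56 snoRNAs. Of these, 7 (12.5%) were higher and 4 (7.14%) lower, against 1.19% and 1.81% of the genes tested. Array weights gave 65 (49.6%) higher and 14 (10.7%) lower, against 6.5% and 6.25% of all genes. Leaving out FLAG native replicates 1 and 3 left 1 FLAG native library. Gm24130, Gm23123, Gm22988 and Gm24727 then changed by -3.96, -3.39, -3.49 and -2.78. The crosslinked over native median was 0.19 with a pseudocount of 8. It was 0.12 at a minimum mean of 10, also when only the members were so limited. Within WT (3 and 0), 6 were higher with a pseudocount of 1, 9 with 8, 5 with protein-coding median centring, 5 with 1 fit of 4 groups, 5 with robust moderation (0.0440% to 0.0755% of all genes in these 5 settings) and 18 with array weights (0.314%). The median there was 0.24 with a pseudocount of 8 or a minimum mean of 10, and leaving out 1 library gave 2 to 5 higher, 0 to 2 lower and medians of 0.83 to 1.22. Within FLAG (1 and 2), 1 was lower with a pseudocount of 1 or 8 or a minimum mean of 10. With array weights 8 were higher and 20 lower there (1.70% and 4.79% of all genes), and with 1 fit of 4 groups 4 and 0 (0.0440% and 0.396%). The median was 0.13 with a pseudocount of 8 and turned to -0.63 among members with a mean of at least 10, and leaving out 1 library gave 0 to 5 higher, 0 to 24 lower and medians of 0.011 to 1.44. With same-numbered libraries as a replicate block, 17 were higher and 13 lower within WT and 27 and 27 within FLAG; all libraries gave 15 and 7, and FLAG over WT stayed at 0 and 0. FLAG over WT in native libraries gave 31 and 13 with array weights, 0 to 28 and 0 to 8 without 1 library, medians of 0.15 to 1.00, and -0.56 without FLAG native replicates 1 and 3. In all libraries it gave 1 and 9 (0.763% and 6.87%) with array weights, against 6.95% and 6.06% of all genes, 0 to 1 lower and medians of -0.30 to 0.34 without 1 library, and -0.71 without FLAG native replicates 1 and 3; in crosslinked libraries medians were -1.59 to -0.16. The interaction median was 0.36 with a pseudocount of 8, 0.29 without FLAG native replicates 1 and 3, and 0.45 to 1.98 without 1 library. Uncalled values that changed sign were FLAG over WT for Snord22 (0.018 with array weights, -0.58 to 0.37 without 1 library), Snord17 (0.26 with array weights), and, without FLAG native replicates 1 and 3, Snora73b (-0.025), Snora73a (-0.12), Snora9 (-0.23) and Snora74a (-0.0083). For crosslinked over native they were Snora73a (0.13 with array weights), Snord13 (-0.88 to 0.083 without 1 library) and Snord14e (-0.19 to 0.65).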
